A study of Lactuca sativa with 12 samples.

Results

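Leaves of lettuce (Lactuca sativa, cultivar Red oak-leaf) that received selenium nanoparticles and no cadmium (SeNP) were compared with leaves that received cadmium and no nanoparticles (Cd). The genes described are all 501 rows of the authors' deposited table of SeNP over Cd, out of 2264 genes that appear in any of 6 deposited tables of pairs of groups. Of the 501 genes, 154 were higher and 347 lower in SeNP than in Cd. The plants grew in hydroponic culture, and whole leaves were taken at 1.5 months for sequencing of poly(A) RNA. The Cd group received cadmium at 10 mg/L, and the SeNP group received biosynthesised selenium nanoparticles at 3 mg/L. The labels give that cadmium dose both as the metal and as its hydrated chloride, which leaves the amount of the ion uncertain. Each group has 3 libraries, named Cd 1 to Cd 3 and SeNP 1 to SeNP 3, from replicates that the series text calls biological. The untreated control (CK) and the combined treatment (CdSeNP, 10 mg/L cadmium with 3 mg/L nanoparticles) took no part in the comparison, and their levels are given only for reference. A difference between SeNP and Cd can therefore come from either agent, and a gene higher in SeNP is in the same measurement a gene lower in Cd.

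Plants short of iron make bHLH transcription factors of the ORG2 and bHLH100 kind, which in Arabidopsis turn on ferric reductases and iron transporters. Plants with ample iron store it in plastids in ferritin, a protein cage that holds the metal in a harmless form. Cadmium enters plants partly through carriers of iron and zinc, and chloroplasts hold much of a leaf's iron, in photosystem I and in iron-sulfur proteins.

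The library totals behind the FPKM scaling, recovered from counts and FPKM, were 28900000 to 31400000 per Cd library and 23300000 to 28700000 per SeNP library. Levels are given in FPKM, fragments scaled to the length of the gene model and the size of the library, so that levels of different genes compare per length. The table lists genes with an adjusted p under 0.05 and more than a 2-fold difference in DESeq2, the count-based test the authors used. Of 22978 genes tested, worked out from the listed adjusted and raw p, 2.18% are listed, with 0.67% higher and 1.51% lower in SeNP. At the largest listed raw p, 4844 genes passed at any fold. Scaling by library totals in place of the authors' size factors moved all log2 differences by 0.102 towards Cd. Replicates differed by more than counting noise, with a chi-square per degree of freedom of 5.98 to 19.0 within groups. That measure covers 1000 to 1036 genes per pair of libraries, all listed in some deposited table, and not all genes tested. All 12 libraries carry the same batch label. Tissue identity could not be checked independently, since the photosynthesis genes with values in both groups are nearly all listed for their difference.

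The log2 fold changes of SeNP over Cd had a median of 1.28 among the 154 higher genes and -1.38 among the 347 lower genes. Of all listed genes 30.7% were higher in SeNP, the share beside which the counts of each gene list stand. Values exist only for genes that some table lists, 1039 in all 6 libraries, and 48.2% of those are listed here, the share beside which the listed share of each gene list stands. More than 4-fold differences were found for 23 higher and 81 lower genes. In 498 of the 501 genes the 3 SeNP libraries did not overlap the 3 Cd libraries. The genes were listed for a difference between these same libraries, so little overlap was largely set in advance. That holds for the single genes below as well, and the share among unlisted genes was not worked out. Genes higher in SeNP were the more abundant, with a median of 5.80 FPKM in SeNP, against 3.15 FPKM in Cd for the lower genes. Means of 100 FPKM or more, in the group where the gene was higher, were reached by 35 of the higher and 14 of the lower genes. In the higher group 82 genes stayed under 1 FPKM. Counts were 0 in all SeNP libraries for 7 genes, and no gene was at 0 in all Cd libraries. Just inside the fold limit lay calcium-binding protein CP1 (LOC111914172) at a log2 fold change of -1.0015 and a chlorophyll a-b binding protein (LOC111919349) at 1.0042. Just outside it, in an edgeR refit, lay replication protein A 70 kDa subunit A (LOC111890477) at -0.9975 and basic blue protein (LOC111904155) at 0.93.

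**Figure D1:**
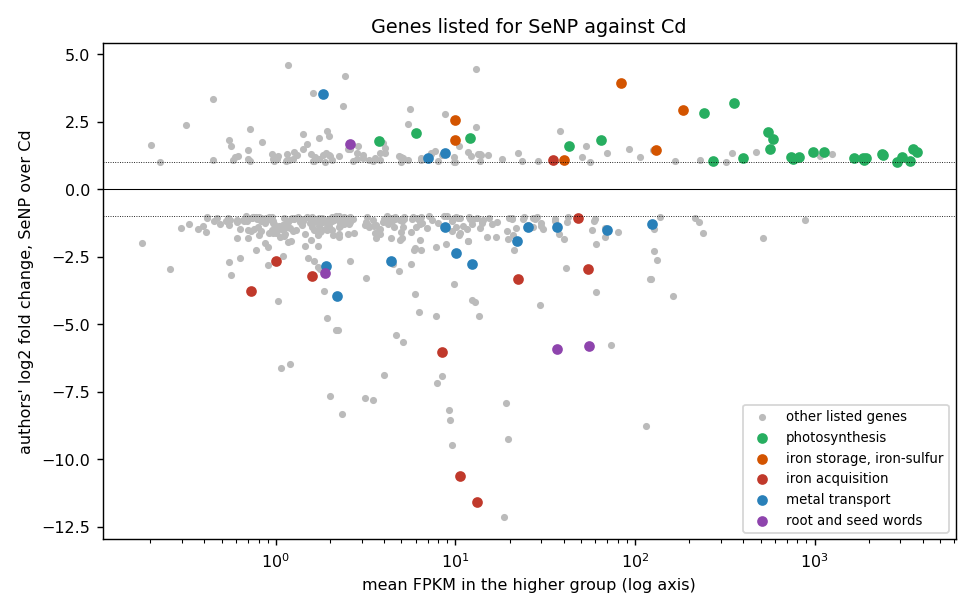
Authors' log2 fold change of SeNP over Cd (vertical axis) against the mean FPKM of the group where the gene is higher (horizontal log axis), 1 point for each of the 501 listed genes, with 5 gene groups in colour and dotted lines at the fold limit. Photosynthesis and iron storage genes lie above 0, and the lowest points include the ORG2 genes of iron acquisition at -11.60 and -10.64.

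The ORG2 and bHLH100 genes of iron acquisition had few or no counts in SeNP. Of 10 listed iron acquisition genes, 9 were lower in SeNP and 1 was higher, with a median log2 fold change of -3.28 against -1.15 over the whole table. The gene LOC111878349, chromosome 5, 325658829 to 325661149, minus strand, described as transcription factor ORG2, had 13.6, 12.5 and 13.4 FPKM in Cd 1 to Cd 3 and no counts in any SeNP library. A neighbouring ORG2 gene (LOC111878326, chromosome 5, 325822992 to 325825348, minus strand) had 10.7, 10.2 and 10.9 FPKM in Cd and again no counts in SeNP. Taking 3 counts over all SeNP libraries together as the floor, which covers counting error only, the lower of the bounds with library totals and with the authors' size factors put SeNP at least 573.4-fold and at least 294.0-fold lower. The adjusted p was 8e-21 for the former and 1.8e-17 for the latter by DESeq2 in the authors' deposited table. On the same stretch of chromosome, transcription factor bHLH100 (LOC111878325, chromosome 5, 325991553 to 325993914, minus strand) had 7.90, 8.26 and 9.18 FPKM in Cd 1 to Cd 3 and 0.132, 0.118 and 0.109 FPKM in SeNP 1 to SeNP 3. Its groups lay far apart, at a log2 fold change of -6.03, with a standard error of 0.456 worked out from the listed p, and an adjusted p of 1.2e-37 by DESeq2 in the authors' deposited table. The ORG2 copy at LOC111878327 was weaker, at 1.58 ± 0.238 FPKM in Cd and 0.163 ± 0.0732 FPKM in SeNP (SD, n = 3). These 4 genes lie between 325658829 and 325993914 on chromosome 5, and reads could be shared among such similar copies.

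Genes named bHLH47 went opposite ways. In Arabidopsis bHLH47 is known as POPEYE, a regulator of the response to iron shortage. The gene on chromosome 4 (LOC111906812, chromosome 4, 397305291 to 397307042, plus strand) had 21.6, 21.9 and 23.4 FPKM in Cd 1 to Cd 3 and 2.12, 2.17 and 1.85 FPKM in SeNP 1 to SeNP 3. All Cd libraries were high and all SeNP libraries low, with a log2 fold change of -3.34 and an adjusted p of 2.9e-126 by DESeq2 in the authors' deposited table. The gene on chromosome 5 (LOC111911448, chromosome 5, 43659331 to 43661446, minus strand) had 17.4, 17.7 and 17.3 FPKM in Cd 1 to Cd 3 and 35.9, 34.8 and 34.0 FPKM in SeNP 1 to SeNP 3. Here the SeNP libraries were the high ones, again without overlap, at a log2 fold change of 1.10 and an adjusted p of 5.5e-51 by DESeq2 in the authors' deposited table. It was the only listed gene of the iron acquisition list that was higher in SeNP.

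Genes for the reduction and long-distance transport of iron were lower in SeNP as well. Ferric reduction oxidase 2 (LOC111894637), which in Arabidopsis reduces iron at the root surface, had 1.12, 0.833 and 1.05 FPKM in Cd 1 to Cd 3 and 0.113, 0.217 and 0.107 FPKM in SeNP 1 to SeNP 3. The groups did not overlap, though levels were low. Ferric reduction oxidase 7 (LOC128129550, on an unplaced sequence), a chloroplast reductase in Arabidopsis, stood at 0.728 ± 0.104 FPKM in Cd and 0.0486 ± 0.0335 FPKM in SeNP (SD, n = 3). Oligopeptide transporter 3 (LOC111920790, chromosome 7, 16632456 to 16635576, minus strand), which loads iron into the phloem in Arabidopsis, had 56.1, 54.0 and 54.3 FPKM in Cd 1 to Cd 3 and 7.06, 6.34 and 6.22 FPKM in SeNP 1 to SeNP 3. Levels within each group lay close together and the groups far apart, at a log2 fold change of -2.97 and an adjusted p listed as 0 by DESeq2 in the authors' deposited table. Another gene of the same name (LOC111905484, chromosome 1, 246660331 to 246664843, plus strand) was also lower, at 48.0 ± 2.33 FPKM in Cd and 21.5 ± 0.264 FPKM in SeNP (SD, n = 3), with a log2 fold change of -1.06 and an adjusted p of 7.8e-64 by DESeq2 in the authors' deposited table.

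Iron storage and iron-sulfur genes were higher in SeNP at all 6 listed members, with a median log2 fold change of 2.21 against 1.28 over all higher genes. Ferritin (LOC111908574, chromosome 8, 163256191 to 163258359, minus strand) had 24.0, 25.6 and 27.2 FPKM in Cd 1 to Cd 3 and 175, 183 and 196 FPKM in SeNP 1 to SeNP 3. Every SeNP library exceeded every Cd library several times over, with a log2 fold change of 2.95 and an adjusted p listed as 0 by DESeq2 in the authors' deposited table. Ferritin-4 on the same chromosome (LOC111919692, chromosome 8, 17057042 to 17059052, plus strand) had 6.25, 6.06 and 5.22 FPKM in Cd 1 to Cd 3 and 79.5, 82.5 and 87.3 FPKM in SeNP 1 to SeNP 3. It had the largest increase among the iron genes, with a log2 fold change of 3.93 and an adjusted p listed as 0 by DESeq2 in the authors' deposited table. A further ferritin-4 gene (LOC111879873, chromosome 2, 221493797 to 221496064, minus strand) had 52.5, 52.2 and 51.1 FPKM in Cd 1 to Cd 3 and 130.0, 131 and 134 FPKM in SeNP 1 to SeNP 3. Its increase was smaller, at a log2 fold change of 1.44 (recovered standard error 0.052) and an adjusted p of 6.9e-168 by DESeq2 in the authors' deposited table.

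The other members of that list carry or assemble iron-sulfur clusters. The CDGSH protein NEET (LOC111903255, chromosome 2, 227989798 to 227990728, plus strand), which binds a labile iron-sulfur cluster, had 1.90, 1.65 and 1.78 FPKM in Cd 1 to Cd 3 and 10.3, 9.64 and 9.70 FPKM in SeNP 1 to SeNP 3. All SeNP libraries were high, at a log2 fold change of 2.58 and an adjusted p of 5.8e-34 by DESeq2 in the authors' deposited table. The iron-sulfur subunit 2 of succinate dehydrogenase (LOC111908866), part of respiratory complex II, stood at 3.00 ± 0.408 FPKM in Cd and 9.97 ± 0.977 FPKM in SeNP (SD, n = 3). The plastid protein ABCI8 (LOC111896265), a homolog of a subunit of an iron-sulfur assembly machine, had 18.3, 19.5 and 22.2 FPKM in Cd 1 to Cd 3 and 41.9, 39.0 and 39.0 FPKM in SeNP 1 to SeNP 3. Its log2 fold change was 1.10, and with library totals it was 0.997, just under the fold limit.

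**Figure D2:**
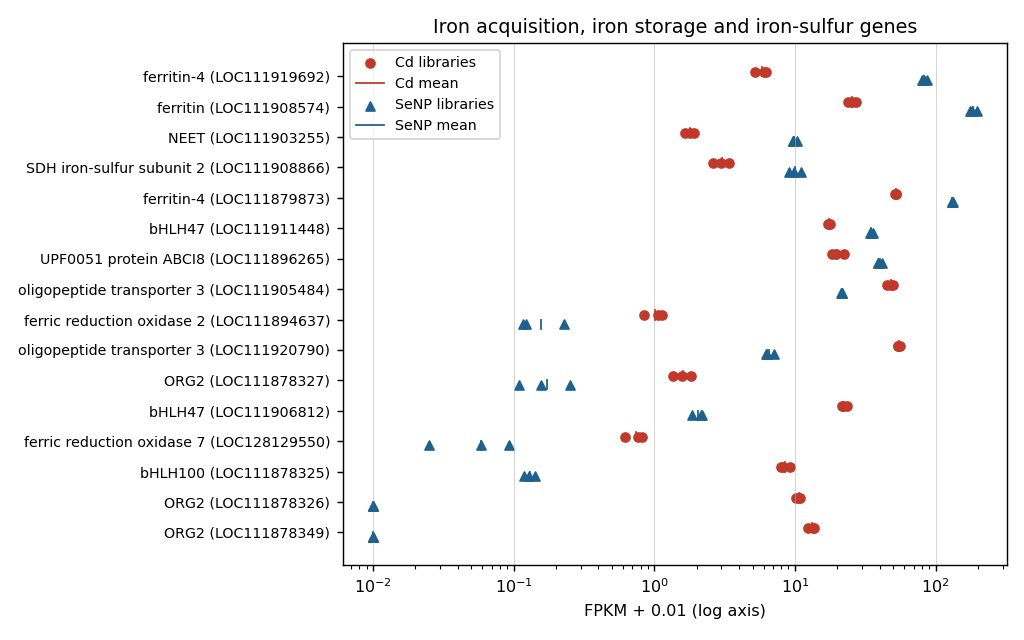
FPKM + 0.01 on a log axis for the 16 listed iron genes, 1 row per gene, with circles for the 3 Cd libraries, triangles for the 3 SeNP libraries and short bars for group means. The 3 ferritins, NEET, the succinate dehydrogenase subunit, ABCI8 and the bHLH47 gene on chromosome 5 are higher in SeNP, and the other 9 genes are higher in Cd.

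Transporters of other metals were mostly lower in SeNP. Of 16 listed metal transport genes, 13 were lower and 3 higher, with a median log2 fold change of -1.47. The share higher was 18.8%, beside 30.7% over the whole table. As at nearly all listed genes, the groups overlapped at no member. The oligopeptide transporter 3 genes described above are among the 13. Another 3 genes of the list with values in all 6 libraries were not listed, and their log2 fold changes in the edgeR refit lay between -0.51 and 0.07. Nramp3, which in Arabidopsis releases iron and other metals from the vacuole, is given at a pair of genes. The more abundant (LOC111896352, chromosome 4, 354476564 to 354479537, minus strand) had 68.9, 67.3 and 72.3 FPKM in Cd 1 to Cd 3 and 22.4, 23.0 and 22.0 FPKM in SeNP 1 to SeNP 3. The other (LOC111902752, chromosome 2, 176385654 to 176388660, minus strand) had 22.4, 20.9 and 22.7 FPKM in Cd 1 to Cd 3 and 5.47, 5.58 and 5.07 FPKM in SeNP 1 to SeNP 3. Both were lower in every SeNP library, with log2 fold changes of -1.53 and -1.93 and adjusted p of 8.2e-145 and 6.4e-104 by DESeq2 in the authors' deposited table.

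Zinc transporters of the ZIP family, which carry zinc and other divalent metals into the cytoplasm, were lower at 5 genes. Zinc transporter 4 (LOC111906062) had 42.3, 31.9 and 35.8 FPKM in Cd 1 to Cd 3 and 12.2, 13.0 and 13.6 FPKM in SeNP 1 to SeNP 3. It was the most abundant of them, with a log2 fold change of -1.41 and an adjusted p of 3.4e-46 by DESeq2 in the authors' deposited table. The genes named zinc transporter 1 stood at 10.1 ± 1.03 FPKM in Cd and 1.84 ± 0.369 FPKM in SeNP (LOC111880346) and at 4.36 ± 0.548 FPKM in Cd and 0.651 ± 0.584 FPKM in SeNP (LOC111897073; SD, n = 3). In the latter SeNP 3, at 1.32 FPKM, was well above the other SeNP libraries but below all Cd libraries. The genes named zinc transporter 5 were scarcer, at 2.18 FPKM in Cd and 0.127 FPKM in SeNP (LOC111893633) and 1.91 FPKM in Cd and 0.25 FPKM in SeNP (LOC111901856).

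Copper transporter 5 (LOC111893192, chromosome 8, 109483130 to 109483700, minus strand), which in Arabidopsis exports copper from the vacuole, had 134, 118 and 122 FPKM in Cd 1 to Cd 3 and 48.1, 39.0 and 54.3 FPKM in SeNP 1 to SeNP 3. The SeNP libraries were all lower, at a log2 fold change of -1.30 and an adjusted p of 1.6e-15 by DESeq2 in the authors' deposited table. A gene described as a putative inactive cadmium/zinc-transporting ATPase of the HMA3 type (LOC111906143) stood at 25.5 ± 3.36 FPKM in Cd and 9.15 ± 0.855 FPKM in SeNP (SD, n = 3). YSL3 (LOC111876026), a carrier of metal-nicotianamine complexes, stood at 8.75 ± 0.507 FPKM in Cd and 3.09 ± 0.249 FPKM in SeNP (SD, n = 3). Vacuolar iron transporter homologs, which move iron into vacuoles, did not share a direction. Homolog 4 at LOC111899495 had 17.1, 10.1 and 9.82 FPKM in Cd 1 to Cd 3 and 1.31, 1.63 and 2.12 FPKM in SeNP 1 to SeNP 3. Homolog 4 at LOC111899502, on the same chromosome, had 0.134, 0.259 and 0.105 FPKM in Cd 1 to Cd 3 and 2.22, 0.993 and 2.27 FPKM in SeNP 1 to SeNP 3. The former was high in Cd and the latter in SeNP, with log2 fold changes of -2.78 and 3.54 in the authors' deposited table. Homolog 2 (LOC111907774) and Nramp6 (LOC111892195) were higher in SeNP, at 8.78 ± 1.50 against 3.71 ± 0.398 FPKM and 7.02 ± 0.856 against 3.39 ± 0.49 FPKM (SD, n = 3).

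Metal chelation was represented by 2 listed genes, both lower in SeNP. Metallothionein-like protein 1 (LOC111896763, chromosome 8, 113863304 to 113864188, minus strand), a small cysteine-rich protein that binds metals, had 959, 843 and 859.9 FPKM in Cd 1 to Cd 3 and 362, 328 and 424 FPKM in SeNP 1 to SeNP 3. All Cd libraries exceeded all SeNP libraries, with a log2 fold change of -1.16 and an adjusted p of 1.9e-16 by DESeq2 in the authors' deposited table. Nicotianamine synthase (LOC111878037), which makes the chelator nicotianamine, stood at 1.76 ± 0.333 FPKM in Cd and 0.54 ± 0.225 FPKM in SeNP (SD, n = 3), with an adjusted p of 1.2e-05 in the same DESeq2 table. Of sulfur and selenium genes only 2 were listed. SULFUR DEFICIENCY-INDUCED 1 (LOC111885583) was higher in SeNP, at 5.42 ± 0.324 against 2.73 ± 0.305 FPKM, and cytosolic sulfotransferase 13 (LOC111895087) was lower, at 1.03 ± 0.318 against 2.41 ± 0.134 FPKM (SD, n = 3). Neither call held in every refit: the log2 fold change of the former was 0.989 with library totals, and that of the latter was -0.888 without SeNP 1.

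Superoxide dismutases, which remove superoxide, differed by their metal. The chloroplast iron enzyme (LOC111905867, chromosome 8, 15473345 to 15483628, plus strand) had 140.0, 123 and 134 FPKM in Cd 1 to Cd 3 and 23.4, 17.7 and 19.0 FPKM in SeNP 1 to SeNP 3. It was low in all SeNP libraries, at a log2 fold change of -2.63 (recovered standard error 0.141) and an adjusted p of 5.4e-75 by DESeq2 in the authors' deposited table. The copper-zinc enzyme (LOC111882980, chromosome 6, 23227212 to 23229667, minus strand) had 107, 125 and 120.1 FPKM in Cd 1 to Cd 3 and 209, 229 and 256 FPKM in SeNP 1 to SeNP 3. It was high in all SeNP libraries, at a log2 fold change of 1.08 and an adjusted p of 1.2e-50 by DESeq2 in the authors' deposited table, but at 0.98 with library totals. A gene of unknown function (LOC111905870, chromosome 8, 15474136 to 15477285, minus strand) lies inside the span of the iron enzyme on the opposite strand and was higher in SeNP, at 0.581 ± 0.118 FPKM in Cd and 1.31 ± 0.231 FPKM in SeNP (SD, n = 3). Whether reads were counted by strand is not given in the sources used here, so reads of these overlapping genes cannot be told apart.

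Among the 7 listed superoxide and copper genes, 5 were higher and 2 lower. A plastocyanin-like gene (LOC111903875, chromosome 9, 55533814 to 55534539, minus strand), named for the copper protein that carries electrons to photosystem I, had 533, 546 and 544 FPKM in Cd 1 to Cd 3 and 1285, 1238 and 1211 FPKM in SeNP 1 to SeNP 3. The difference exceeded the spread within each group many times, at a log2 fold change of 1.30 and an adjusted p of 4.7e-201 by DESeq2 in the authors' deposited table. Polyphenol oxidase I, a plastid copper enzyme, was higher at LOC111905063, with 168 ± 17.1 FPKM in Cd and 319.6 ± 18.3 FPKM in SeNP, and lower at LOC111905064, with 1.91 ± 0.361 FPKM in Cd and 0.669 ± 0.0647 FPKM in SeNP (SD, n = 3). The former call ended with library totals and without Cd 1, Cd 3 or SeNP 2, at log2 fold changes of 0.926 to 0.998. Laccase-4 (LOC111906766) and laccase-12 (LOC111896841), copper enzymes linked to lignin, reached 2.23 ± 0.131 and 0.954 ± 0.09 FPKM in SeNP against 1.03 ± 0.296 and 0.41 ± 0.16 FPKM in Cd (SD, n = 3). Another 9 genes of this list with values were not listed, 2 above and 7 below 0 in the edgeR refit, so 43.8% of the list with values is listed.

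Photosynthesis was the most numerous of the 30 lists, and all 28 listed members were higher in SeNP, with 1 more gene not listed, at 0.78 in the edgeR refit. Their median log2 fold change was 1.34, beside 1.28 over all higher genes, and 24 of the 28 passed with library totals. They comprised 22 chlorophyll a-b binding proteins, which hold the light-harvesting pigments, 5 subunits of photosystem I and 1 small subunit of Rubisco, the carbon-fixing enzyme. No subunit of photosystem II was listed. Summed over the 28 genes, levels were 16621, 15265 and 16774 FPKM in Cd 1 to Cd 3 and 36225, 36442 and 35989 FPKM in SeNP 1 to SeNP 3. In whole leaves, fewer cells of a type and less RNA per cell cannot be told apart.

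The steepest photosynthesis gene was a chlorophyll a-b binding protein of LHCII type 1 (LOC111895045, chromosome 1, 134932729 to 134933678, plus strand), with 43.9, 37.8 and 42.9 FPKM in Cd 1 to Cd 3 and 374, 340.1 and 349.5 FPKM in SeNP 1 to SeNP 3. It had a log2 fold change of 3.20 and an adjusted p listed as 0 by DESeq2 in the authors' deposited table. Another LHCII type 1 gene (LOC111921754) had 139.7, 122 and 141 FPKM in Cd 1 to Cd 3 and 567, 539 and 549 FPKM in SeNP 1 to SeNP 3. Both show tight groups, whereas chlorophyll a-b binding protein 5 at LOC111895565 varied, with 28.2, 15.5 and 64.2 FPKM in Cd 1 to Cd 3 and 161, 284 and 279 FPKM in SeNP 1 to SeNP 3. Among its Cd libraries Cd 3 was the highest, and the adjusted p was 8.8e-05 by DESeq2 in the authors' deposited table. An LHCII type 1-like gene (LOC111888053) varied as well, with 884, 514 and 954 FPKM in Cd 1 to Cd 3 and 1043, 2407 and 1503 FPKM in SeNP 1 to SeNP 3 and an adjusted p of 0.034 in the same DESeq2 table. Its call ended without Cd 2 or SeNP 2, at log2 fold changes of 0.937 and 0.798. It and the further photosystem I and Rubisco genes given next to subunit N were picked after their values were seen. Of the LHCII type 1 genes, 4 lie between 47180363 and 47277390 on chromosome 4, and reads could be shared among such copies.

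Photosystem I subunit genes were among the most abundant of the table. Subunit N (LOC111904178, chromosome 1, 12613136 to 12614096, minus strand) had 1362, 1353 and 1386 FPKM in Cd 1 to Cd 3 and 3615, 3553 and 3464 FPKM in SeNP 1 to SeNP 3. All SeNP libraries lay far above all Cd libraries, at a log2 fold change of 1.48 and an adjusted p of 5.1e-280 by DESeq2 in the authors' deposited table. Subunit III (LOC111898563) stood at 1525 ± 27.5 FPKM in Cd and 3704 ± 18.4 FPKM in SeNP, and subunit XI (LOC111918291) at 1449 ± 53.3 FPKM in Cd and 3071 ± 94.5 FPKM in SeNP (SD, n = 3). The Rubisco small subunit gene (LOC111908248) stood at 142 ± 0.642 FPKM in Cd and 273 ± 13.3 FPKM in SeNP (SD, n = 3), and its call ended with library totals, at a log2 fold change of 0.94. Chlorophyll synthesis was represented by 2 genes, both higher in SeNP. Glutamyl-tRNA reductase 1 (LOC111877439, chromosome 6, 189618182 to 189620450, minus strand), at the committed step of chlorophyll and haem synthesis, had 197, 189 and 198 FPKM in Cd 1 to Cd 3 and 467, 465 and 475 FPKM in SeNP 1 to SeNP 3. Geranylgeranyl diphosphate reductase (LOC111909735), which makes the phytol tail of chlorophyll, had 501, 472 and 508 FPKM in Cd 1 to Cd 3 and 1102, 1072 and 1052 FPKM in SeNP 1 to SeNP 3. Neither gene's groups came near each other, with adjusted p of 2e-206 and 1.6e-142 by DESeq2 in the authors' deposited table.

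**Figure D3:**
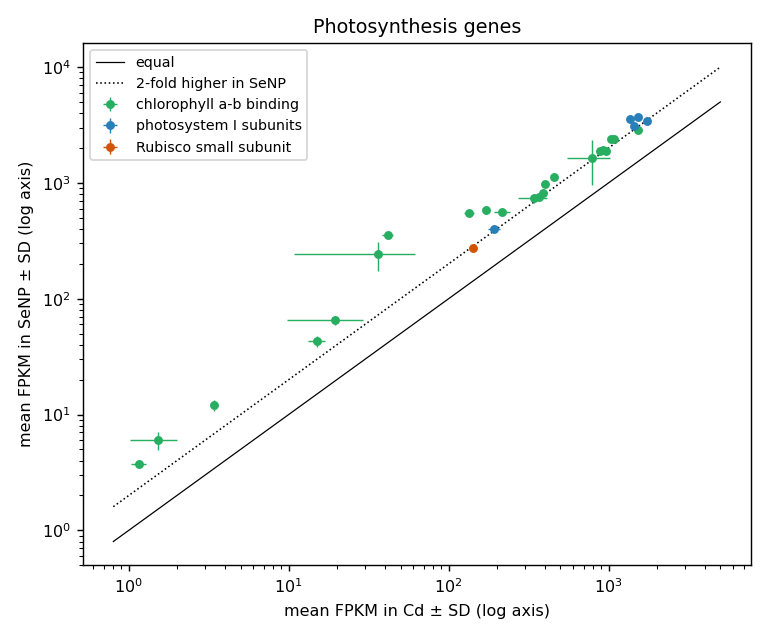
Mean FPKM ± SD in SeNP against mean FPKM ± SD in Cd (log axes, 3 libraries per group) for the 28 listed photosynthesis genes, coloured by kind, with a solid line at equal levels and a dotted line at the 2-fold limit. All points lie above equality, and the LHCII type 1 gene at 41.5 FPKM in Cd and 355 FPKM in SeNP lies farthest above it.

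Cell division genes were lower in SeNP at all 12 listed members, with a median log2 fold change of -1.12. They belong to DNA replication, such as proliferating cell nuclear antigen (LOC111916510), the sliding clamp of DNA polymerase, with 21.3, 27.6 and 23.1 FPKM in Cd 1 to Cd 3 and 10.4, 10.0 and 12.7 FPKM in SeNP 1 to SeNP 3. A dUTP nucleotidohydrolase gene (LOC111909470), which keeps uracil out of DNA, had 13.1, 18.1 and 15.0 FPKM in Cd 1 to Cd 3 and 6.62, 6.60 and 7.55 FPKM in SeNP 1 to SeNP 3. In both genes Cd 2 was the highest library. A minichromosome maintenance complex-binding protein (LOC111919666), MCM5 (LOC111908347) and origin recognition subunit 6 (LOC111896106), named after their values were seen, stood at 9.56 ± 2.26, 11.9 ± 2.30 and 2.55 ± 0.377 FPKM in Cd and 3.09 ± 0.444, 5.39 ± 1.00 and 1.07 ± 0.177 FPKM in SeNP (SD, n = 3). Most of the list was not listed: another 87 genes of the list with values were not listed, with a median log2 fold change of -0.11 in the edgeR refit. Summed over all 99 genes, levels were 2885, 3942 and 2944 FPKM in Cd and 2681, 2853 and 2731 FPKM in SeNP, with Cd 2 above the rest. The refit called 7 of the 12 without Cd 2, 8 without SeNP 1 and 9 without SeNP 2. The call of the clamp gene ended without any 1 of these libraries, at log2 fold changes of -0.917, -0.98 and -0.95. That of the dUTP nucleotidohydrolase gene ended without Cd 2, at -0.934, and that of MCM5 without Cd 2, Cd 3 or SeNP 1, at -0.942, -0.977 and -0.928.

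The largest decrease of the table was that of LOC111910137, chromosome 5, 291153223 to 291155217, plus strand, which is described as EPIDERMAL PATTERNING FACTOR-like protein 1, of a family of secreted peptides that includes regulators of stomatal spacing. It had 18.7, 17.8 and 19.7 FPKM in Cd 1 to Cd 3 and no counts in any SeNP library, which puts SeNP at least 827.6-fold lower against the floor of 3 counts. Its adjusted p was 9.3e-23 by DESeq2 in the authors' deposited table. Some genes named for seed proteins were also nearly absent in SeNP, but not all, as given below. Oleosin L (LOC111905845, chromosome 8, 14825650 to 14826345, plus strand), a coat protein of oil bodies, had 57.8, 55.0 and 54.4 FPKM in Cd 1 to Cd 3 and 1.12, 0.802 and 0.863 FPKM in SeNP 1 to SeNP 3. A vicilin-like gene (LOC111919377, chromosome 3, 114990948 to 114993674, minus strand), related to seed storage proteins, had 39.0, 34.2 and 37.6 FPKM in Cd 1 to Cd 3 and 0.413, 0.547 and 0.781 FPKM in SeNP 1 to SeNP 3. Their log2 fold changes were -5.81 and -5.91, with adjusted p of 2.5e-152 and 6.8e-301 by DESeq2 in the authors' deposited table.

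Of the 5 root and seed marker genes with values, 4 were listed, and none was at 0 counts in any library. The other listed members are a second oleosin L gene (LOC111892096), lower at 1.87 FPKM in Cd and 0.203 FPKM in SeNP, and late embryogenesis abundant protein D-34 (LOC111913774), higher at 0.87 FPKM in Cd and 2.57 FPKM in SeNP. Summed over the 5 genes, levels ran from 140.2 to 146.5 FPKM in Cd and from 82.6 to 95.7 FPKM in SeNP, and their part in the other results was not tested. The unlisted gene had a log2 fold change of 0.89 in the edgeR refit. Of the 2 epidermis, guard cell and vascular markers with values, EPIDERMAL PATTERNING FACTOR-like protein 1 was listed and the other was not, at -0.13 in the edgeR refit. The words of that marker list miss some listed genes named for the epidermis. Epidermis-specific secreted glycoprotein EP1 (LOC111913769) and protodermal factor 1 (LOC111914646), named after their values were seen, were lower in SeNP. Their log2 fold changes were -1.76 and -1.38 in the authors' deposited table. Cuticle and lipid transfer genes are given below.

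Other large decreases concern single enzymes and regulators. Nitrate reductase (LOC111902813, chromosome 7, 171656429 to 171660848, plus strand), which catalyses the entry step of nitrate assimilation, had 6.82, 5.33 and 6.66 FPKM in Cd 1 to Cd 3 and 0.144, 0.187 and 0.432 FPKM in SeNP 1 to SeNP 3. All SeNP libraries were low, at a log2 fold change of -4.54 and an adjusted p of 3.2e-24 by DESeq2 in the authors' deposited table. The F-box protein PP2-B15 (LOC111905931) stood at 29.7 ± 8.75 FPKM in Cd and 1.42 ± 0.446 FPKM in SeNP, and a prolyl endopeptidase gene (LOC111914318) at 7.80 ± 2.89 FPKM in Cd and 0.284 ± 0.168 FPKM in SeNP (SD, n = 3). The latter varied within Cd, with 11.0, 6.98 and 5.40 FPKM in Cd 1 to Cd 3. A locus described as a subunit of phosphopantothenoylcysteine decarboxylase, an enzyme of coenzyme A synthesis, stood at 5.11 ± 0.295 FPKM in Cd and 0.091 ± 0.086 FPKM in SeNP (chromosome 8, 86132759 to 86159323; SD, n = 3). The chloroplast chaperone DnaJ C76 (LOC111886184, chromosome 4, 106632213 to 106636250, plus strand) had 118, 113 and 134 FPKM in Cd 1 to Cd 3 and 11.5, 10.8 and 11.5 FPKM in SeNP 1 to SeNP 3. Its groups were tight and far apart, at a log2 fold change of -3.34 and an adjusted p listed as 0 by DESeq2 in the authors' deposited table.

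Redox genes did not share a direction, with 3 higher and 4 lower listed, and another 5 with values not listed. Ubiquinol oxidase 2 (LOC111897513, chromosome 5, 146351405 to 146352976, plus strand), the alternative oxidase of mitochondria, had 40.8, 36.6 and 45.6 FPKM in Cd 1 to Cd 3 and 5.09, 4.91 and 5.27 FPKM in SeNP 1 to SeNP 3. The Cd libraries were all high, at a log2 fold change of -2.91 and an adjusted p of 6.1e-166 by DESeq2 in the authors' deposited table. Peroxidase 3 (LOC111904350) was lower, at 3.51 FPKM in Cd and 1.31 FPKM in SeNP. The thioredoxin-like protein CXXS1 (LOC111905178) and respiratory burst oxidase homolog E (LOC111906528), which makes superoxide, were higher, at 28.7 ± 3.52 against 14.7 ± 1.52 FPKM and 1.16 ± 0.269 against 0.576 ± 0.204 FPKM (SD, n = 3). Both of these calls ended with library totals, at log2 fold changes of 0.965 and 0.997, and that of the oxidase also without Cd 2 or SeNP 3, at 0.9 and 0.912.

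Of the 23 genes more than 4-fold higher in SeNP, 8 belong to the photosynthesis, iron or metal transport lists and 15 do not. Of the 15, 6 reached 5 FPKM in SeNP and 6 have no functional description. The largest log2 fold change, 4.59, was that of a scarce gene for the cysteine protease SAG39 (LOC111892047), at 0.0533 FPKM in Cd and 1.16 FPKM in SeNP, named after its values were seen. Plastidial pyruvate kinase 4 (LOC111888822, chromosome 2, 233275288 to 233278989, plus strand), a glycolytic enzyme, had 1.41, 1.43 and 1.23 FPKM in Cd 1 to Cd 3 and 8.89, 8.62 and 8.54 FPKM in SeNP 1 to SeNP 3. The SeNP libraries were all high, at a log2 fold change of 2.78 and an adjusted p of 7.2e-113 by DESeq2 in the authors' deposited table. A xyloglucan endotransglucosylase/hydrolase (LOC111897800), which remodels cell walls, had 9.96, 8.65 and 8.81 FPKM in Cd 1 to Cd 3 and 39.2, 38.8 and 36.1 FPKM in SeNP 1 to SeNP 3. Dehydrin Rab18 (LOC111913327), an abscisic acid-responsive protein in Arabidopsis, had 0.93, 1.20 and 1.16 FPKM in Cd 1 to Cd 3 and 6.31, 5.93 and 4.05 FPKM in SeNP 1 to SeNP 3. A gene described as chloroplast-like ribosomal protein L2 of the 50S subunit (LOC128126385, chromosome 5, 82101149 to 82101948, plus strand) had 0.945, 0.598 and 0.346 FPKM in Cd 1 to Cd 3 and 6.87, 15.2 and 16.7 FPKM in SeNP 1 to SeNP 3. It showed the largest fold among increases reaching 5 FPKM, at a log2 fold change of 4.46 in the authors' deposited table, with SeNP 1 well below the other SeNP libraries. Its description is that of a gene of the chloroplast genome, and whether reads of that gene were counted here was not tested.

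Of 13 listed cytochrome P450 and terpene genes, 12 were lower and 1 higher, and another 6 with values were not listed, 4 above and 2 below 0. Lettuce genes for CYP72A219, a P450 whose substrate is not given in the files, lie next to each other on chromosome 3, and 4 of them together with a receptor-like gene form a run of 5 lower genes between 49817976 and 50081907. The member at LOC111884384 had 7.52, 7.93 and 8.01 FPKM in Cd 1 to Cd 3 and 1.61, 1.78 and 1.58 FPKM in SeNP 1 to SeNP 3, and the one at LOC128125841 stood at 5.87 ± 0.596 FPKM in Cd and 1.14 ± 0.101 FPKM in SeNP (SD, n = 3). Neither pair of groups overlapped, with adjusted p of 4.4e-54 and 3.7e-38 by DESeq2 in the authors' deposited table. The 1 higher gene, cytochrome P450 76C1 (LOC111903765), stood at 0.99 ± 0.0345 FPKM in Cd and 1.87 ± 0.0486 FPKM in SeNP (SD, n = 3) and lost its call with library totals or without Cd 3. Of 13 listed glycosyltransferases and efflux pumps 10 were lower and 3 higher, and the 2 not listed lay below 0. The share higher in this list, 23.1%, stands beside 30.7% over the whole table. UDP-glycosyltransferase 85C1 (LOC111917379), which attaches sugars to small molecules, stood at 60.1 ± 2.97 FPKM in Cd and 26.1 ± 1.39 FPKM in SeNP (SD, n = 3). ABC transporter C member 10 (LOC111890855), of a family that pumps conjugates into vacuoles, had 17.7, 17.3 and 16.4 FPKM in Cd 1 to Cd 3 and 6.84, 7.00 and 6.95 FPKM in SeNP 1 to SeNP 3. Neighbouring UDP-glycosyltransferase 43 genes were higher, at 5.11 ± 0.422 against 2.45 ± 0.17 FPKM (LOC111887813) and 6.40 ± 0.709 against 3.24 ± 0.446 FPKM (LOC111887822; SD, n = 3), the latter not with library totals.

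Of 7 listed phenylpropanoid and flavonoid genes, 6 were lower, and the 4 not listed all lay below 0. An isoflavone reductase homolog (LOC111898507) stood at 13.7 ± 1.59 FPKM in Cd and 4.70 ± 0.898 FPKM in SeNP, and dirigent protein 22 (LOC111898986), which guides lignan coupling, at 9.81 ± 0.694 FPKM in Cd and 4.37 ± 0.492 FPKM in SeNP (SD, n = 3). The call of the latter ended without SeNP 2. Caffeoylshikimate esterase (LOC111921494), a lignin enzyme, was higher, with 8.84, 8.73 and 9.24 FPKM in Cd 1 to Cd 3 and 18.5, 18.1 and 18.0 FPKM in SeNP 1 to SeNP 3. Of 10 listed cell wall genes 8 were lower, with another 13 not listed, 12 of them below 0. Expansin-A4 (LOC111898216), which loosens walls, had 29.4, 28.5 and 31.5 FPKM in Cd 1 to Cd 3 and 11.1, 10.6 and 10.7 FPKM in SeNP 1 to SeNP 3, and extensin-2 (LOC111921786), a wall glycoprotein, stood at 1.63 ± 0.233 FPKM in Cd and 0.238 ± 0.0413 FPKM in SeNP (SD, n = 3). Exopolygalacturonase (LOC111902286), a pectin-degrading enzyme, was higher but scarce, at 0.269 FPKM in Cd and 0.84 FPKM in SeNP. Of 15 cuticle and lipid transfer genes with values 46.7% are listed, near the 48.2% over all genes with values. Of 7 listed cuticle and lipid transfer genes 6 were lower, with another 8 not listed, 3 above and 5 below 0. The exception was ECERIFERUM 26 (LOC111905151), which lengthens wax chains in Arabidopsis, with 24.7, 23.1 and 22.9 FPKM in Cd 1 to Cd 3 and 56.5, 45.0 and 50.3 FPKM in SeNP 1 to SeNP 3. GDSL esterase/lipase (LOC111879128) and 3-ketoacyl-CoA synthase 4 (LOC111889753), of fatty acid elongation, were lower at 1.71 FPKM in Cd and 0.379 FPKM in SeNP and 1.99 FPKM in Cd and 0.863 FPKM in SeNP, the call of the latter not without Cd 2.

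**Figure D4:**
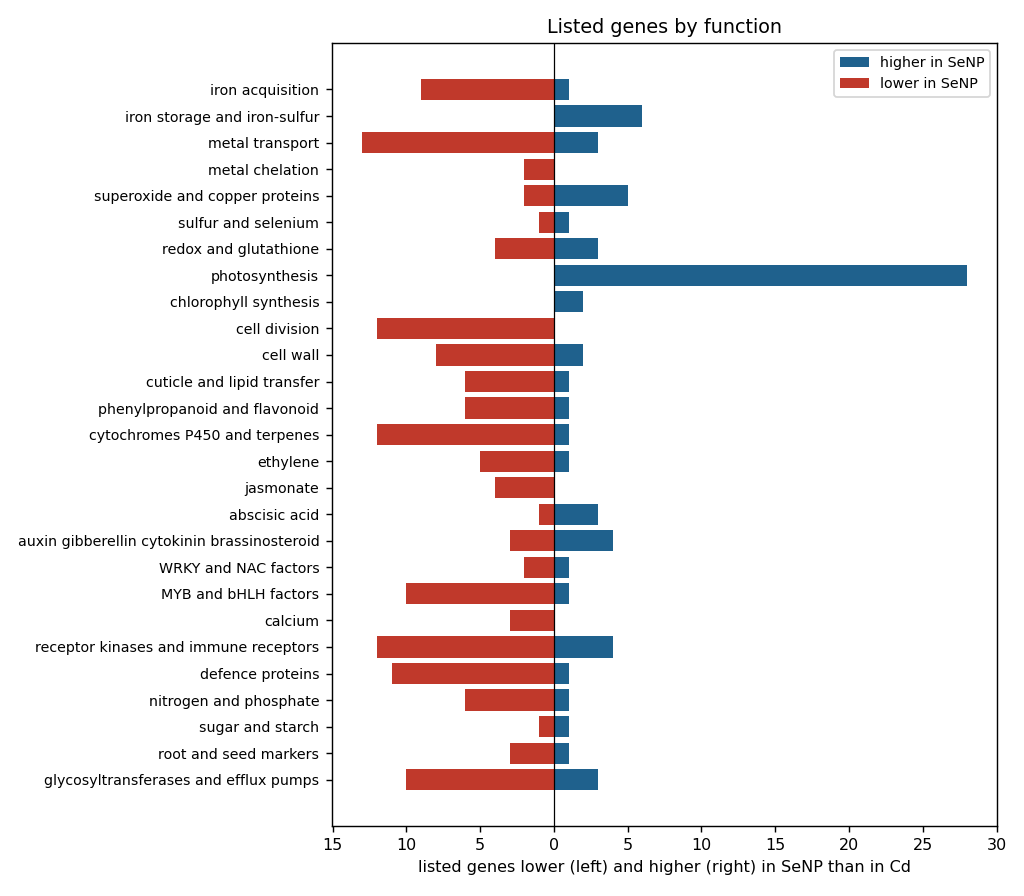
Number of listed genes lower (bars to the left) and higher (bars to the right) in SeNP than in Cd for 27 gene lists with at least 2 listed members. Photosynthesis has 28 genes on the right and none on the left, and metal transport, with 13, has the most genes on the left.

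Of 8 jasmonate genes with values 4 were listed, all lower, and the other 4 also lay below 0. Those listed are all of the TIFY family, to which the JAZ repressors of jasmonate signalling belong. TIFY 10A on chromosome 1 (LOC111882352, chromosome 1, 46562104 to 46563136, plus strand) had 39.9, 37.3 and 36.0 FPKM in Cd 1 to Cd 3 and 10.7, 9.66 and 12.8 FPKM in SeNP 1 to SeNP 3. TIFY 10A on chromosome 5 (LOC111910354) had 12.9, 11.3 and 11.0 FPKM in Cd 1 to Cd 3 and 2.65, 2.73 and 3.36 FPKM in SeNP 1 to SeNP 3. Every SeNP library was below every Cd library in both, with adjusted p of 5.3e-60 and 3.4e-32 by DESeq2 in the authors' deposited table. Of 21 ethylene genes with values 6 were listed (28.6%), 5 lower and 1 higher, and of the 15 not listed 12 lay below 0. Ethylene-responsive factor ERF109 (LOC111903160) had 62.4, 55.5 and 58.4 FPKM in Cd 1 to Cd 3 and 24.7, 21.5 and 27.1 FPKM in SeNP 1 to SeNP 3, and a homolog of 1-aminocyclopropane-1-carboxylate oxidase (LOC111887911) stood at 2.36 ± 0.402 FPKM in Cd and 0.929 ± 0.157 FPKM in SeNP (SD, n = 3). 1-aminocyclopropane-1-carboxylate synthase 3 (LOC111900308), which makes the ethylene precursor, was higher, at 1.69 ± 0.0547 FPKM in Cd and 3.55 ± 0.341 FPKM in SeNP (SD, n = 3).

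Of 10 abscisic acid genes with values 4 were listed (40.0%), 3 higher and 1 lower, and of the 6 not listed 5 lay below 0. The higher genes were dehydrin Rab18 and late embryogenesis abundant protein D-34, given above, and abscisic acid 8'-hydroxylase 4 (LOC111908842), which inactivates the hormone, at 1.78 ± 0.178 FPKM in Cd and 3.46 ± 0.147 FPKM in SeNP (SD, n = 3). The call of the hydroxylase ended with library totals and without Cd 2. Protein phosphatase 2C 25 (LOC111905914) was lower, with 16.8, 14.8 and 16.3 FPKM in Cd 1 to Cd 3 and 5.96, 5.36 and 7.11 FPKM in SeNP 1 to SeNP 3. Of the 7 listed genes that the words of the auxin, cytokinin and gibberellin list match, 4 were higher and 3 lower, and the 5 not listed lay below 0. Those words miss some listed genes named for these hormones, so the split does not cover all of them. Zeatin O-xylosyltransferase genes (LOC111920583 and LOC111887116), named for the cytokinin zeatin and picked after their values were seen, were both lower in SeNP. Their log2 fold changes were -1.61 and -1.17 in the authors' deposited table. How many such genes the words miss, in either direction, was not worked out. Auxin-induced protein IAA6 (LOC111918948), of the family of auxin repressors, was higher at 4.55 ± 0.621 FPKM in Cd and 9.79 ± 1.56 FPKM in SeNP, and the auxin-releasing hydrolase ILR1-like 6 (LOC111882459) was lower at 1.50 ± 0.0666 FPKM in Cd and 0.237 ± 0.0983 FPKM in SeNP (SD, n = 3). The cytokinin-activating enzyme LOG (LOC111920731) was lower, at 4.99 ± 0.237 FPKM in Cd and 1.57 ± 0.367 FPKM in SeNP (SD, n = 3). A run of 4 small auxin-induced genes or neighbours added to the annotation by the authors, between 212331832 and 212446050 on chromosome 8, was higher at all 4, including the auxin-induced protein 15A locus at 212418700 at 1.65 FPKM in Cd and 3.30 FPKM in SeNP, whose call ended with library totals.

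Transcription factors described as MYB or bHLH were lower at 10 of 11 listed genes, with 4 not listed, 3 of them above 0. The lower genes include bHLH100 and a bHLH47 gene, while the ORG2 genes are not in this list. Of 11 WRKY and NAC genes with values 3 were listed (27.3%). WRKY factor 75 (LOC111919362) was lower and WRKY factor 70 (LOC111883782) higher, at 10.6 ± 0.625 FPKM in Cd and 4.71 ± 0.216 FPKM in SeNP and at 1.70 ± 0.291 FPKM in Cd and 4.07 ± 0.437 FPKM in SeNP (SD, n = 3). WRKY 72A (LOC111891140) was lower at 1.26 FPKM in Cd and 0.55 FPKM in SeNP, a call that ended without SeNP 2 or SeNP 3. Of 16 calcium genes with values 3 were listed (18.8%), all lower, and of the 13 not listed 10 lay below 0. The calcium-binding protein CP1 at LOC111914173 had 30.4, 27.6 and 32.0 FPKM in Cd 1 to Cd 3 and 12.7, 10.4 and 12.7 FPKM in SeNP 1 to SeNP 3, whereas the CP1 gene at LOC111914172 lay at the fold limit and lost its call in the DESeq2 refit and without Cd 3 or SeNP 2. Of 44 receptor kinase and immune receptor genes with values 16 were listed (36.4%), 4 higher and 12 lower, a split near that of the whole table. Of 16 defence protein genes with values 12 were listed (75.0%), 11 of them lower. Thaumatin-like protein 1b (LOC111879914) had 81.0, 65.7 and 56.4 FPKM in Cd 1 to Cd 3 and 17.5, 21.8 and 16.0 FPKM in SeNP 1 to SeNP 3. Kirola, of the pathogenesis-related protein 10 family, was lower at LOC111887588, with 6.45 ± 0.661 FPKM in Cd and 1.29 ± 0.535 FPKM in SeNP, and higher at LOC111899314, with 3.73 ± 0.423 FPKM in Cd and 8.37 ± 0.422 FPKM in SeNP (SD, n = 3). A further kirola gene (LOC111920935) was lower, at a log2 fold change of -1.80 and an adjusted p of 0.025 by DESeq2 in the authors' deposited table.

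Among the receptors an LRR receptor-like kinase (LOC111916727) was lower at 1.82 FPKM in Cd and 0.739 FPKM in SeNP and receptor-like protein 7 (LOC111882721) at 5.16 FPKM in Cd and 2.25 FPKM in SeNP, the latter not without Cd 1. Another LRR receptor-like kinase (LOC111912695) and disease resistance protein RPV1 (LOC111889671) were higher, at 0.502 FPKM in Cd and 1.49 FPKM in SeNP and at 0.0658 FPKM in Cd and 0.315 FPKM in SeNP. Another gene named RPV1 (LOC111902837) was lower, at a log2 fold change of -1.37 and an adjusted p of 0.0049 by DESeq2 in the authors' deposited table. Of 7 listed nitrogen and phosphate genes 6 were lower, with another 3 not listed, 1 above and 2 below 0. The transporter NRT1/PTR 2.10 (LOC111882123) had 29.5, 28.1 and 27.6 FPKM in Cd 1 to Cd 3 and 13.7, 11.4 and 14.1 FPKM in SeNP 1 to SeNP 3, and a glycerol-3-phosphate transporter (LOC111901625) stood at 20.6 ± 0.921 FPKM in Cd and 9.20 ± 1.49 FPKM in SeNP (SD, n = 3). Both calls lay near the fold limit, and the former ended without Cd 1 or SeNP 2, the latter without SeNP 1. Purple acid phosphatase 22 (LOC111904822), of a family that frees phosphate, was higher at 1.18 ± 0.181 FPKM in Cd and 2.82 ± 0.154 FPKM in SeNP (SD, n = 3). Sucrose synthase (LOC111890876) was lower at 1.17 FPKM in Cd and 0.282 FPKM in SeNP and hexokinase-like 2 (LOC111896250) higher at 0.535 FPKM in Cd and 1.42 FPKM in SeNP. No light and circadian gene was listed.

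Of the listed genes 57 are loci the authors added to the annotation, 17 higher and 40 lower in SeNP. The following were picked after their values were seen. On chromosome 5, 10 of these loci lie between 238471865 and 238707909, and all were lower in SeNP, with log2 fold changes from -9.48 to -5.23 in the authors' deposited table. Most resemble the same hypothetical protein, so reads could be shared among them. Nearby, the locus at 238238514 to 238239246 had 114, 113 and 117 FPKM in Cd 1 to Cd 3 and 0.16, 0.333 and 0.234 FPKM in SeNP 1 to SeNP 3. The locus at 238251525 to 238252082 had 73.4, 70.1 and 76.3 FPKM in Cd 1 to Cd 3 and 1.26, 1.19 and 1.31 FPKM in SeNP 1 to SeNP 3. Both were abundant in every Cd library and scarce in every SeNP library. Diacylglycerol O-acyltransferase 3 (LOC111914211), which makes storage oil, was the most abundant described enzyme among the lower genes, with 532, 504 and 518 FPKM in Cd 1 to Cd 3 and 138, 139 and 133 FPKM in SeNP 1 to SeNP 3.

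Levels in CK and CdSeNP are known only for genes that those groups' tables also list, so the following counts describe those genes. Each was listed for a difference from CK or CdSeNP. Which group it lay nearer to therefore depends in part on the comparison that listed it. On log2(FPKM + 0.1), CK lay nearer to SeNP than to Cd for 101 of 112 higher genes and for 164 of 275 lower genes. CK 2 stood apart from CK 1 and CK 3 in some genes, and without it the counts were 101 and 158. CdSeNP lay nearer to Cd for 93 of 107 higher genes and for 189 of 264 lower genes. For photosynthesis CK lay nearer to SeNP at 26 of 26 genes and CdSeNP nearer to Cd at 25 of 25. Ferritin LOC111908574 stood at 148 ± 12.9 FPKM in CK and 34.2 ± 3.87 FPKM in CdSeNP, and oligopeptide transporter 3 LOC111920790 at 7.45 ± 0.968 and 54.5 ± 3.19 FPKM (SD, n = 3).

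Some groups had another pattern. For the 12 cell division genes CK lay nearer to SeNP at 12 of 12 and CdSeNP nearer to SeNP at 10 of 10, and the clamp gene LOC111916510 had 3.92 FPKM in CK and 13.3 FPKM in CdSeNP. The iron superoxide dismutase LOC111905867 had 139 ± 0.0899 FPKM in CK and 129 ± 4.79 FPKM in CdSeNP, near its level in Cd, and the copper-zinc enzyme LOC111882980 had 79.1 ± 8.25 and 101 ± 6.34 FPKM (SD, n = 3). For jasmonate CK lay nearer to Cd at 3 of 3 genes, and TIFY 10A LOC111882352 had 40.3, 23.1 and 39.5 FPKM in CK 1 to CK 3, with CK 2 the lowest. Nitrate reductase LOC111902813 had 1.26 ± 0.127 FPKM in CK and 1.20 ± 0.173 FPKM in CdSeNP, between its levels in SeNP and Cd. Dehydrin Rab18 LOC111913327 was at 1 ± 0.378 FPKM in CK and 59.4 ± 9.69 FPKM in CdSeNP, above either single treatment.

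**Figure D5:**
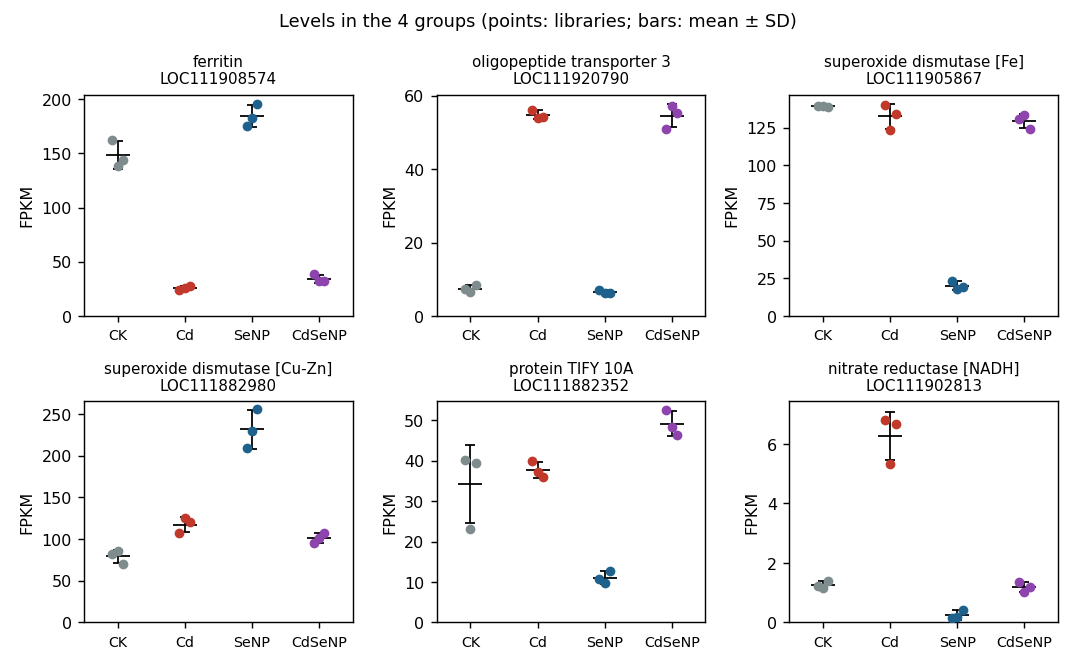
FPKM in CK, Cd, SeNP and CdSeNP for 6 genes, with a point per library and bars at the mean ± SD of 3 libraries. Ferritin and oligopeptide transporter 3 have CK close to SeNP and CdSeNP close to Cd, whereas the iron superoxide dismutase is low in SeNP and between 124 and 139 FPKM in the libraries of CK and CdSeNP.

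The edgeR and DESeq2 refits of the 1039 genes with values in all 6 libraries reused the same counts. They also took over the authors' recovered size factors and the largest listed p, so a similar list was largely set in advance. With limma on log2(FPKM + 1), 70 of the 110 named genes kept their call and 40 did not. The edgeR and DESeq2 refits both called 484 of the 501 genes, and 374 were called in all 6 refits that left out 1 library. Of the 110 named genes 90 held in every refit on counts and in every one of these 6, and no named gene changed direction under any alternative. Of the 538 genes with values that the table does not list, 9 passed the p and fold limits in the edgeR refit and 146 passed the p limit at any fold. No permutation test of single genes was run, since 3 libraries against 3 allow an exact two-sided p of 0.1 at the lowest.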

How the data were processed

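Poly(A) RNA of whole leaves was sequenced after TruSeq preparation, per the labels' protocols. Per the submitters' processing notes, which state no order, the tools were DESeq2 1.34.0, HISAT2 2.2.1, StringTie 2.2.1, Trimmomatic and fastp 0.23.0. Not given in the sources used here were the counting program, its use of strand and the genome build. Per the file headers, the authors deposited raw read counts and FPKM per gene and library. The log2 fold changes and p-values of SeNP over Cd are the authors' deposited values, listed only for genes they called.

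The calls were taken from that table. Standard errors, the number of genes tested, library totals (from genes with at least 200 counts) and the authors' size factors (from 80 genes with at least 300 counts) were recovered from the listed values. Genes with values in all 6 libraries in any table (1039) were refitted with edgeR 4.0.16 (quasi-likelihood), DESeq2 1.42.0 and limma 3.58.1 in R 4.3.3. A value could be a count of 0. A refit called a gene at a p of at most 0.01013, the largest listed, and over 2-fold. Self-tests ran on simulated data. A total of 444 genes matched RefSeq Lsat_Salinas_v11 by ID, start and end, and 57 are loci added by the authors.

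The 30 gene lists are words matched on RefSeq or NR descriptions. Members and lists were chosen with earlier results of these data known, and some lists were extended after values were seen. Named genes were the 10 largest increases and decreases with a functional description, at least 5 FPKM and no overlap, all members of 6 metal, superoxide and sulfur lists, and up to 2 genes per direction of smallest p in each other list. No set test was run. Promoter motifs and sequences were not analysed here.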

Additional observations from a re-analysis of the deposited data

How the results depend on the processing

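The edgeR refit called 153 genes higher in SeNP than in Cd and 344 genes lower in SeNP than in Cd, and the DESeq2 refit 154 and 332, beside 154 and 347 in the authors' table. With limma on log2(FPKM + 1), which shrinks the folds of scarce genes, the counts were 62 higher, 163 lower and 6 cell division genes. With the fold limit raised to a log2 of 2 they were 23 higher, 81 lower, 3 iron storage, 6 metal transport, 4 photosynthesis and 0 cell division genes. Leaving out 1 library at a time gave 134 to 148 higher and 298 to 325 lower genes, with 26 to 28 photosynthesis, 6 iron storage, 9 iron acquisition, 13 metal transport and 7 to 12 cell division genes, the 7 without Cd 2. Library totals, chosen as an edgeR refit after seeing the data, gave 119 higher and 347 lower genes, an adjusted p under 0.01 gave 145 and 309, and a mean of at least 1 FPKM gave 136 and 283. With the replicate number as a block, edgeR called 153 higher and 340 lower genes. Same-numbered libraries had correlations of their deviations of 0.09, 0.19 and -0.03, and differently numbered libraries of -0.21 to 0.11. With 3 libraries per group these values cannot settle whether the numbers pair the samples. No named gene changed direction under any alternative tried. Depth limits the genes under 1 FPKM, and genes that no table lists were not analysed here.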

Other observations

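Some abundant listed genes belong to none of the lists described, and they were picked after their values were seen. The plastid-lipid-associated protein 14 gene (LOC111900455), of a family that coats plastid lipid droplets, had 124, 112 and 128 FPKM in Cd 1 to Cd 3 and 11.8, 10.5 and 11.5 FPKM in SeNP 1 to SeNP 3. A locus of a hypothetical protein on chromosome 9 (81227994 to 81229087) had 165, 155 and 168 FPKM in Cd 1 to Cd 3 and 11.0, 8.74 and 9.57 FPKM in SeNP 1 to SeNP 3. Both were high in all Cd libraries and low in all SeNP libraries, with an adjusted p listed as 0 in the authors' deposited DESeq2 table. An elongation factor 1-alpha gene (LOC111916401), of protein synthesis, was lower in SeNP, at 127 ± 10.5 FPKM in Cd and 24.2 ± 0.903 FPKM in SeNP (SD, n = 3). The glycine-rich proteins at LOC111900248 and LOC111902829 were lower too, at 239 ± 16.6 FPKM in Cd and 73.0 ± 7.27 FPKM in SeNP and at 227 ± 3.63 FPKM in Cd and 90.6 ± 12.4 FPKM in SeNP (SD, n = 3).

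Chloroplast genes outside photosynthesis proper did not share a direction. DnaJ C76 and plastid-lipid-associated protein 14, given above, were lower in SeNP, whereas the following genes were higher. Carbonic anhydrase 1 (LOC111920498), which interconverts carbon dioxide and bicarbonate, had 135, 146 and 158 FPKM in Cd 1 to Cd 3 and 367, 329 and 342 FPKM in SeNP 1 to SeNP 3. The sigma factor sigA (LOC111892130), which directs the plastid RNA polymerase to promoters, had 49.0, 49.6 and 51.4 FPKM in Cd 1 to Cd 3 and 108, 108 and 103 FPKM in SeNP 1 to SeNP 3. Neither gene's groups overlapped, with adjusted p of 8.2e-106 and 2e-127 in the authors' deposited DESeq2 table.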
